A study of Mus musculus with 2 samples.

Results

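The USP genes encode ubiquitin-specific proteases, and the data described here are the circular RNAs (circRNAs) spliced from those genes in mouse intestinal cells. All rows of both deposited lists whose host gene name begins with Usp and a digit were taken, which gave 247 of 31496 listed circRNAs and 38 of 8174 host genes. Of these 247, 211 had at least 1 read across the back-splice junction, against 26265 of all listed circRNAs. The name pattern also takes Usp6nl, which encodes a Rab GTPase-activating protein and not a deubiquitinase. Cyld, a deubiquitinase of the same enzyme class, lacks the pattern and was kept apart, as were Uspl1 and Pan2.

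Cells came from the intestine of mice aged 2 months, of the strain Lgr5GFP-CreERT2, in which the reporter and the inducible Cre recombinase are driven from Lgr5. Flow cytometry separated an Lgr5+ fraction, labelled ISC for intestinal stem cell, from an Lgr5- fraction, labelled non-ISC, and both fractions carry the reporter allele. RNA was depleted of ribosomal RNA and treated with RNase R, an enzyme that digests linear RNA. Each group had 1 library, the labels do not give the number of mice, and no treatment is labelled, so differences below lack replicates and carry no p-value.

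Deubiquitinases remove ubiquitin from proteins and so oppose ubiquitin ligases. The USP class is the largest family of them, and its members act on histones, receptors, the proteasome and mitochondria. A circRNA forms when a splice donor joins an acceptor upstream of it, and only a read across that back-splice junction separates it from the linear transcript. Intestinal stem cells depend on Wnt signalling, in which ubiquitin controls the stability of beta-catenin and axin.

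The libraries went against their labels on cell type markers. The library labelled ISC held 156582 junction reads and the other 76331, and the levels below are junction reads per 1000000 of these. Of 16 intestinal stem cell markers, 12 had reads, and their summed level was 377 labelled ISC and 2515 labelled non-ISC. At 0 in the library labelled ISC were 11 markers, among them Lgr5 and Olfm4, which had 7 reads and 1 read in the other. Of these 11, Ascl2, Sox9, Tnfrsf19 and Ephb3 were at 0 in both libraries. Cd44 (12 reads against 2) and Cdk6 (5 against 2) were the only stem cell markers with a ratio above 1, and Znrf3 was at 0.934. Of 15 epithelial markers, 14 had reads, with summed levels of 83.0 and 40285, and none of the 14 had a ratio above 1. Epcam, Cdh1 and Vil1 were at 0 in the library labelled ISC, with 59, 12 and 5 reads in the other. Btnl1 alone gave 2421 of the 3075 epithelial reads labelled non-ISC. Of 18 T lymphocyte markers, 15 had reads, with summed levels of 45395 and 1690, although Cd3e, Cd3d and Cd8a were at 0 in both libraries. Satb1 alone gave 4292 of the 7108 T lymphocyte reads labelled ISC. The part of these markers in the Usp differences was not tested, and fewer cells of a type cannot be told apart from less RNA per cell. Directions below are therefore between the library labelled ISC and the library labelled non-ISC.

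The junction sequences of the circRNAs that the results turn on are given here first, because the junction is the only part of a circle that its linear transcript lacks. Each runs 5′ to 3′ on the strand of the gene, read from GENCODE M21 transcript sequences on GRCm38. The lower-case part is the last 30 nt of the final exon and the capitals are the first 30 nt of the exon it is joined back to. Of the 26 distinct stretches of 30 nt, 2 were also found in other genes. The lower-case part of Usp9x and the capitals of Usp12 exons 3 to 6 occur in other annotated genes, so those values are uncertain.
Usp3 exons 4 to 7: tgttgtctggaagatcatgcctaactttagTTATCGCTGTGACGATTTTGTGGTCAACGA
Usp3 exons 2 to 7: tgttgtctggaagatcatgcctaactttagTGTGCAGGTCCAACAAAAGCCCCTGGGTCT
Usp3 exons 2 to 6: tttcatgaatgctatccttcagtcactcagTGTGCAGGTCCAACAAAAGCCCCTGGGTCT
Usp3 exons 2 to 5: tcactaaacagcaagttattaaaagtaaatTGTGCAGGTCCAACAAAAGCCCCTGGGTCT
Usp48 exons 2 to 3: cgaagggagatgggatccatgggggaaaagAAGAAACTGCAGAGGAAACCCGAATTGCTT
Usp48 exons 2 to 4: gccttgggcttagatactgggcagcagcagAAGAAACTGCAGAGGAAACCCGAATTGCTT
Usp48 exons 2 to 5: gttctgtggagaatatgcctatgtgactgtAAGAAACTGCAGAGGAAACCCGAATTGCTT
Usp12 exons 2 to 3: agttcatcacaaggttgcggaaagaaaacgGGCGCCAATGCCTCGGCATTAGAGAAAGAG
Usp12 exons 4 to 6: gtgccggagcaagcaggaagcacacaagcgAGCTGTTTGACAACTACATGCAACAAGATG
Usp12 exons 3 to 6: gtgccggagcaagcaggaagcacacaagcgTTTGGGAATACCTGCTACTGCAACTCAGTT
Usp9x exons 16 to 17: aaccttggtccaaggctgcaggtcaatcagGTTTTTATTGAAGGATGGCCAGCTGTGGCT
Usp7 exons 3 to 5: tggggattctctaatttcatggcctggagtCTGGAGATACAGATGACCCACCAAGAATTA
Usp15 exons 2 to 5: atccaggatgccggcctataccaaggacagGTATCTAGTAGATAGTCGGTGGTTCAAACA
Usp34 exons 30 to 33: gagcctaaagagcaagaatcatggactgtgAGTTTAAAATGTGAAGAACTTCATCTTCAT
Usp32 exons 23 to 26: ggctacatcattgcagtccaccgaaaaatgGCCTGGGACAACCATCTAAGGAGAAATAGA
Usp30 exons 2 to 3: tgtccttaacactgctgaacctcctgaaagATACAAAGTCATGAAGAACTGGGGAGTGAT

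As a group, the Usp genes held a similar small share of the circular RNA in both libraries. The library labelled ISC had 823 reads on 158 Usp circRNAs of 33 host genes, which is 0.526% (exact binomial interval at 95%, 0.490 to 0.563) of its junction reads. The library labelled non-ISC had 440 reads on 88 circRNAs of 31 host genes, or 0.576% (0.524 to 0.633). The ratio of the shares, labelled ISC over labelled non-ISC, was 0.912 with an exact conditional counting interval of 0.811 to 1.03. This interval, like all those below, covers counting error only, and reads are not independent molecules. The ratio was 1.17 (1.02 to 1.34) without Usp3 and 1.22 (1.03 to 1.44) over circRNAs with reads in both libraries. With each library's total of all reads as the denominator (library totals), which moves every log2 ratio up by 1.49, it was 2.57 (2.28 to 2.89).

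Most Usp circRNAs were thinly covered and seen in 1 library. Of the 211, 35 had reads in both libraries, 123 had reads only labelled ISC and 53 only labelled non-ISC. These 35 carried 58.8% and 44.1% of the Usp reads of the respective libraries, whereas circRNAs found in both carried 66.9% and 62.9% of all junction reads. Of the 123, 85 had 1 or 2 reads, and so had 38 of the 53. A missing entry was counted as 0 reads in sums over a host gene, but a single circRNA against a missing entry is given as reads with no fold.

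Reads were concentrated in a few host genes. Usp48, Usp9x and Usp3 held 37.9% of the Usp reads labelled ISC, and Usp3, Usp12 and Usp48 held 51.6% of those labelled non-ISC. A host gene or circRNA was called higher or lower if it had 10 or more reads in the libraries together, differed 2-fold or more and had an interval that excluded 1. By this rule 4 of the 17 Usp host genes with enough reads were called higher in the library labelled ISC and 3 were called lower. Over all 2920 host genes tested, 26.7% were higher and 22.7% lower, so the share of Usp genes called (23.5% and 17.6%) was near the background. Their median log2 ratio was 0.27, against 0.16 over all host genes tested (pseudocount of 0.5 read). With library totals the split became 11 higher and 0 lower, beside 58.8% and 11.1% of all host genes.

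**Figure D1:**
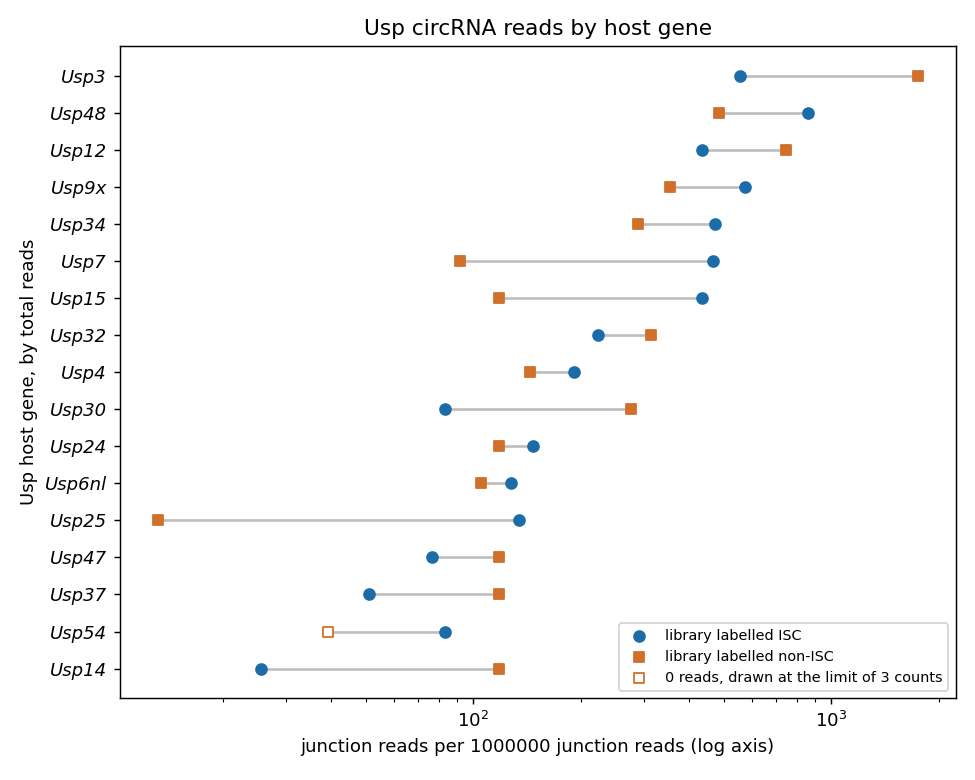
Junction reads per 1000000 junction reads (log axis) for the 17 Usp host genes with at least 10 reads over both libraries, circles for the library labelled ISC and squares for the library labelled non-ISC. Usp3 has the highest square, at 1742, and Usp48 the highest circle, at 862; the open square of Usp54 stands for 0 reads, drawn at the limit of 3 counts.

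Among the Usp genes that act on chromatin and in DNA repair, Usp3 was lower and Usp7 higher in the library labelled ISC. Usp3, which removes ubiquitin from histones, lies on chromosome 9 (66514637 to 66593142, minus strand, GRCm38). It had 87 reads on 10 circRNAs labelled ISC and 133 reads on 4 labelled non-ISC, levels of 556 and 1742, a ratio of 0.319 (0.241 to 0.421). This call rests on 1 circRNA, described below, and without it the ratio turned to 6.06 (2.82 to 15.5). With library totals the Usp3 ratio was 0.898 (0.677 to 1.19).

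Usp7, which deubiquitinates p53 and its ligase Mdm2, had 73 reads labelled ISC and 7 labelled non-ISC, levels of 466 and 91.7. The ratio was 5.08 (2.35 to 13.1). Restricted to its 2 circRNAs seen in both libraries, Usp7 had a ratio of 2.51 (1.10 to 6.68), still past the rule. Usp48, a nuclear deubiquitinase, had the most reads of any Usp gene in the library labelled ISC, with 135 on 15 circRNAs against 37 on 10. Its ratio of 1.78 (1.23 to 2.63) missed the 2-fold rule. Usp37, known for its action on cyclin A, had 8 reads against 9 and did not pass.

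Of the members known for receptor signalling and trafficking, Usp15 and Usp25 were higher in the library labelled ISC and the other 6 with enough reads did not pass. Usp15, which acts in TGF-beta signalling, had 68 reads on 12 circRNAs against 9 on 3, a ratio of 3.68 (1.83 to 8.40). Usp4, a paralog of Usp15, had 30 against 11 and did not pass, at 1.33 (0.648 to 2.94). Usp25 had 21 reads on 6 circRNAs against 1 read, a ratio of 10.2 (1.65 to 423), and none of its circRNAs had reads in both libraries.

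Usp12, which needs the cofactor Wdr48 for full activity, had 68 reads against 57. Its levels were 434 and 747 and its ratio 0.582 (0.403 to 0.842), which missed the 2-fold rule. Usp9x, an X-linked deubiquitinase that stabilises the survival protein Mcl1, had 90 against 27, a ratio of 1.62 (1.05 to 2.60). Usp34, which stabilises axin in Wnt signalling, had 74 against 22, a ratio of 1.64 (1.01 to 2.77). For Usp12, Usp9x and Usp34 the interval excluded 1 but the fold was under 2. With reads halved, the intervals of Usp9x (0.877 to 3.53) and Usp34 (0.776 to 3.64) included 1. That of Usp12 (0.337 to 0.998) did not. Usp32, a membrane-associated member, had 35 against 24, and Usp47, a paralog of Usp7, had 12 against 9. Both intervals included 1.

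Among members of ubiquitin recycling, the proteasome and mitochondria, Usp30 and Usp14 were lower in the library labelled ISC. Usp5, the other listed member of that set, had 4 reads against 0, the opposite direction but under the minimum. Usp30, which sits in the mitochondrial outer membrane and opposes mitophagy, had 13 reads labelled ISC and 21 labelled non-ISC. Its levels were 83.0 and 275 and its ratio 0.302 (0.139 to 0.632). Usp14, which trims ubiquitin chains at the proteasome, had 4 reads against 9, a ratio of 0.217 (0.0488 to 0.776). No Usp14 circRNA had reads in both libraries, and over exonic circRNAs alone the Usp14 ratio was 0.325 (0.0675 to 1.37), which does not pass. With library totals neither gene was lower, at 0.850 (0.391 to 1.78) for Usp30 and 0.610 (0.137 to 2.19) for Usp14.

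Of the remaining members with enough reads, Usp54 was higher in the library labelled ISC. It had 13 reads on 3 circRNAs against 0, at least 2.11-fold higher with 0 reads set at 3 counts in that library. That bound leaves out the counting error of the 13 reads, and the exact interval of the ratio starts at 1.49. With reads halved, Usp54 and Usp14 fell under the minimum of 10. Usp24 had 23 against 9 and Usp6nl 20 against 8, and neither passed. The other 21 host genes had fewer than 10 reads, between 0 and 6 labelled ISC and between 0 and 8 labelled non-ISC. Among these, Usp43 had 0 against 8 and Usp38 0 against 6, both with intervals below 1 (upper ends 0.286 and 0.414) but under the minimum, while Usp45 had 6 against 0 and Usp1, which acts in DNA crosslink repair, had 4 against 0. Another 18 annotated protein-coding Usp genes had no entry in either list, among them Usp22 of the SAGA complex, Usp2 and Usp18.

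**Figure D2:**
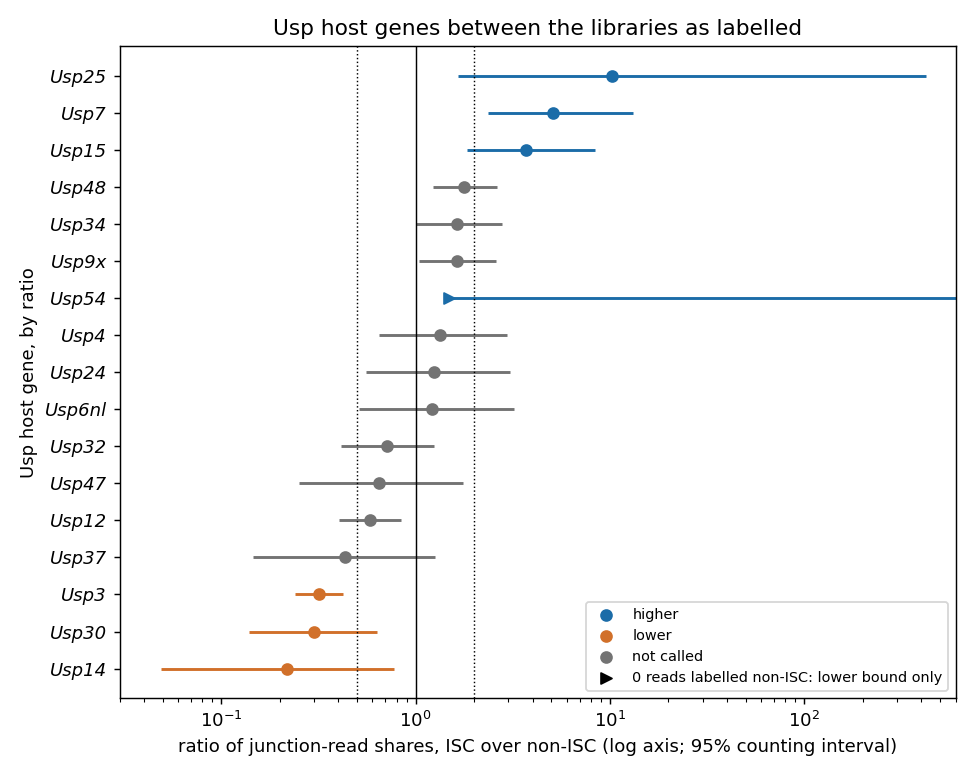
Ratio of junction-read shares, labelled ISC over labelled non-ISC (log axis), with 95% counting intervals for the 17 Usp host genes with at least 10 reads; dotted lines mark 2-fold and colours the call. The arrowhead of Usp54 marks the lower end of its interval, 1.49. Usp25, Usp7, Usp15 and Usp54 are higher, Usp3, Usp30 and Usp14 lower, and 10 are not called.

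Usp3 had different leading circles in the libraries. The library labelled non-ISC had 126 of its 133 Usp3 reads, 94.7% (89.5 to 97.9), on the circRNA of exons 2 to 7 at chr9:66540062-66566903, a coding circle of 556 nt. This circRNA had no entry in the library labelled ISC. There the leading circRNA was that of exons 4 to 7, at chr9:66540062-66547955 and 363 nt long, with 46 of 87 reads or 52.9% (41.9 to 63.7). The same circRNA had 4 reads labelled non-ISC, a share of 3.01% (0.825 to 7.52). Its ratio between libraries was 5.61 (2.05 to 21.4), opposite in direction to the Usp3 sum. Over Usp3 circRNAs with reads in both libraries, the circle of exons 4 to 7 led in both, with 46 of 48 reads and 4 of 5.

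Both leading Usp3 circles use the donor at the end of exon 7 and differ in the acceptor, so the junction lines above share their lower-case part. Exons 2 and 3, which the larger circle has and the smaller lacks, measure 61 and 132 nt. That stretch (chr9:66562554-66566903, minus strand) is shown because it is what separates the circles, with exon 2 in lower case and exon 3 in capitals.
Usp3 exons 2 and 3: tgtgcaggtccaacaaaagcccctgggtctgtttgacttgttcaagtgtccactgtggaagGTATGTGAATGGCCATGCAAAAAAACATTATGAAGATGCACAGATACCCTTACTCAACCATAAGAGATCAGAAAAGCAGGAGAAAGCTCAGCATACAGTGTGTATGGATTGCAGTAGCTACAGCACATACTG
The length of the smaller circle is a multiple of 3, and that of the larger leaves a remainder of 1.

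Both splice sites of the circle without an entry were used by other Usp3 circles in the library labelled ISC. There the exon 2 acceptor was joined to the donors of exon 5 (12 reads) and of exon 6 (12 reads), and neither circle had an entry in the library labelled non-ISC. In the library labelled ISC the exon 7 donor was also joined to a position 7 nt inside exon 2, with 2 reads. That position is not an annotated exon end, so it was listed as another circRNA. Counted by acceptor, exon 2 held 27.6% (18.5 to 38.2) of the Usp3 reads labelled ISC and 94.7% of those labelled non-ISC. Exon 4 as acceptor held 52.9% and 3.01%. Counted by donor, exon 7 held 59.8% (48.7 to 70.1) and 98.5% (94.7 to 99.8). These shares are not separate results. In the library labelled non-ISC, all 126 reads of the exon 2 acceptor came from the circle of exons 2 to 7. The same circle gave 126 of the 131 reads of the exon 7 donor there. Whether the missing entry stands for 0 reads was not tested.

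The other 8 Usp3 circRNAs were thin. That of exons 3 to 7 had 2 reads against 1 and that of exons 3 to 6 had 4 labelled ISC. In the 3′ part of the gene, exons 11 to 13 gave 2 reads labelled non-ISC. Another 4 circRNAs had 1 end on an annotated exon end and 2 to 4 reads, and 1 had neither end on one and 1 read, all labelled ISC. Among them, the circRNA with its acceptor at 66566896, 7 nt inside exon 2, uses the exon 7 donor and had 2 reads.

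**Figure D3:**
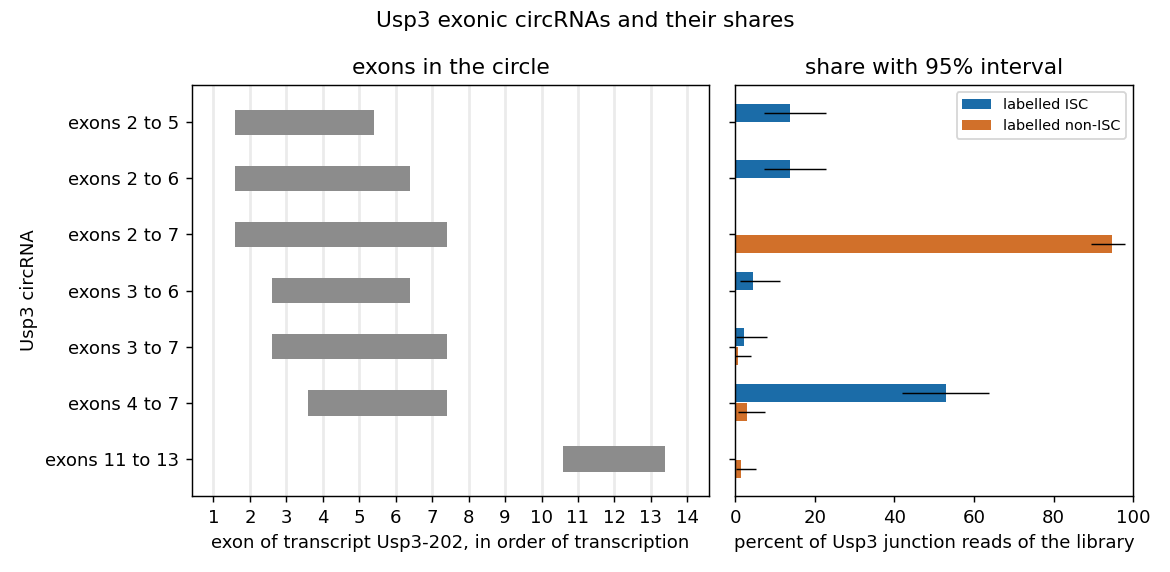
Left, the exons of the Usp3 transcript held by each of the 7 exonic Usp3 circRNAs; right, each circRNA as a percent of the Usp3 junction reads of the library, with exact 95% intervals, and no bar where there was no entry. The circle of exons 2 to 7 takes 94.7% labelled non-ISC, and that of exons 4 to 7 takes 52.9% labelled ISC.

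With the minimum of 10 reads, single Usp circRNAs were called more often higher than lower, as were all circRNAs tested. Among the 24 Usp circRNAs that had enough reads, 10 (41.7%) were called higher in the library labelled ISC and 4 (16.7%) lower. Beside these stand 32.4% and 23.0% of all 3659 circRNAs tested (55.4% in either direction). The median log2 ratio of the 24 was 1.11, against 0.34 over all those tested. Of the 10 higher, 5 had no entry in the other library, as had 1 of the 4 lower. These calls, and their part in the median, count a missing entry as 0 reads. Among the 18 with reads in both libraries, 5 were higher and 3 lower, beside 15.7% and 20.2% of 2542 such circRNAs. With library totals the split over the 24 was 19 higher and 1 lower. With reads halved, fewer circRNAs had enough reads, and 3 were higher and 2 lower. The lead of higher calls turned with the minimum, to 10 higher and 11 lower at 5 reads and 10 and 13 without one. The minimum applies to summed reads, of which the library labelled ISC has more, and its part in the split was not tested.

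Most Usp48 reads came from circles with 1 shared acceptor. The 4 Usp48 circRNAs that start at the exon 2 acceptor at position 137604523 held 107 of 135 reads labelled ISC, 79.3% (71.4 to 85.8), and 21 of 37 labelled non-ISC, 56.8% (39.5 to 72.9). The smallest, exons 2 to 3 at chr4:137604523-137605908, had 45 reads against 1, a ratio of 21.9 (3.74 to 885), and was higher. Exons 2 to 4 had 33 against 7, a ratio of 2.30 (0.9997 to 6.16) that did not pass. Exons 2 to 5 had 19 against 10 and a ratio of 0.926 (0.410 to 2.23). Exons 2 to 9 had 10 against 3.

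Within Usp48, the circle of exons 2 to 3 held 33.3% (25.5 to 42.0) of the Usp48 reads labelled ISC, while its share labelled non-ISC was 2.70% (0.0684 to 14.2). That of exons 2 to 5 held 14.1% (8.69 to 21.1) and 27.0% (13.8 to 44.1), whose intervals overlap. Circles starting at exon 19 held 3 of 135 reads and 10 of 37. The whole circle of exons 2 to 3, 278 nt, is shown because it is the most one-sided Usp circRNA with reads in both libraries, with exon 2 in lower case and exon 3 in capitals.
Usp48 circle of exons 2 and 3: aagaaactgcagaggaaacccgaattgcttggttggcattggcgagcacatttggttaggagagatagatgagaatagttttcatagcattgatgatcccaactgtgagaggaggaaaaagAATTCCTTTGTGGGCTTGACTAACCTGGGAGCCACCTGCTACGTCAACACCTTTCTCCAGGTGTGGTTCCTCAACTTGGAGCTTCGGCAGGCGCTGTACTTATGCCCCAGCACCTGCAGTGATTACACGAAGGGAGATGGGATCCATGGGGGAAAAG

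In Usp12, 2 circles were lower in the library labelled ISC and none was called higher. Exons 2 to 3 (chr5:146763201-146769017) had 24 reads against 27, a ratio of 0.433 (0.239 to 0.780), and passed the rule. Exons 4 to 6 (chr5:146751695-146754599) had 17 against 20, a ratio of 0.414 (0.204 to 0.833), and passed it too. Exons 3 to 6, which share the donor of the latter as the junction lines show, had 22 against 5 and did not pass, at 2.14 (0.793 to 7.25). The circle of exons 3 to 6 held 32.4% (21.5 to 44.8) of the Usp12 reads labelled ISC, while its share labelled non-ISC was 8.77% (2.91 to 19.3). With library totals the circles of exons 2 to 3 and of exons 4 to 6 were no longer lower.

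In Usp9x 1 circle held most reads in both libraries. Exons 16 to 17 (chrX:13123168-13124663, 439 nt) had 72 of 90 reads labelled ISC, 80.0% (70.2 to 87.7), and 16 of 27 labelled non-ISC, 59.3% (38.8 to 77.6). That circRNA was higher, at 2.19 (1.26 to 4.04), although the Usp9x sum missed the 2-fold rule. Usp30 had all of its 21 reads labelled non-ISC on exons 2 to 3 (chr5:114102383-114103826), and 10 of 13 labelled ISC. That circRNA was lower, at 0.232 (0.0976 to 0.515).

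Usp7 also had most reads on 1 acceptor, as had Usp15 in the library labelled ISC. In Usp7 the acceptor of exon 3 held 58 of 73 reads labelled ISC and all 7 labelled non-ISC. Its circle of exons 3 to 5 (chr16:8710039-8716619) had 27 against 4, a ratio of 3.29 (1.15 to 12.9), that of exons 3 to 6 had 17 reads and no entry in the other library, and that of exons 3 to 4 had 9 against 3. In Usp15 the acceptor of exon 2 held 45 of 68 reads labelled ISC and 3 of 9 labelled non-ISC. Exons 2 to 5 (chr10:123168227-123181800) had 28 against 3, a ratio of 4.55 (1.41 to 23.4), and exons 2 to 6 had 12 reads and no entry in the other library. The leading Usp15 circRNA labelled non-ISC, at chr10:123125468-123125656, had 4 of 9 reads, neither end on an annotated exon end and no entry labelled ISC.

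Usp34 spread its reads over many circles, and in both Usp34 and Usp32 the leading circle differed between the libraries. Usp34 had 30 listed circRNAs, the most of any Usp gene, and its leading circle labelled ISC, exons 30 to 33 (chr11:23401453-23405953), had 17 of 74 reads against 2 of 22. Labelled non-ISC the circle of exons 8 to 10 led with 8 reads, and it had no entry in the library labelled ISC. In Usp32, exons 23 to 26 (chr11:85017630-85022905) had 17 of 35 reads against 4 of 24, and exons 31 to 32 had 8 reads labelled non-ISC and no entry labelled ISC. The leading circRNA was shared by the libraries in 4 of the 8 Usp host genes that had 10 reads or more in both, namely Usp12, Usp30, Usp4 and Usp9x. Over all 1101 such host genes the share was 65.9%.

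**Figure D4:**
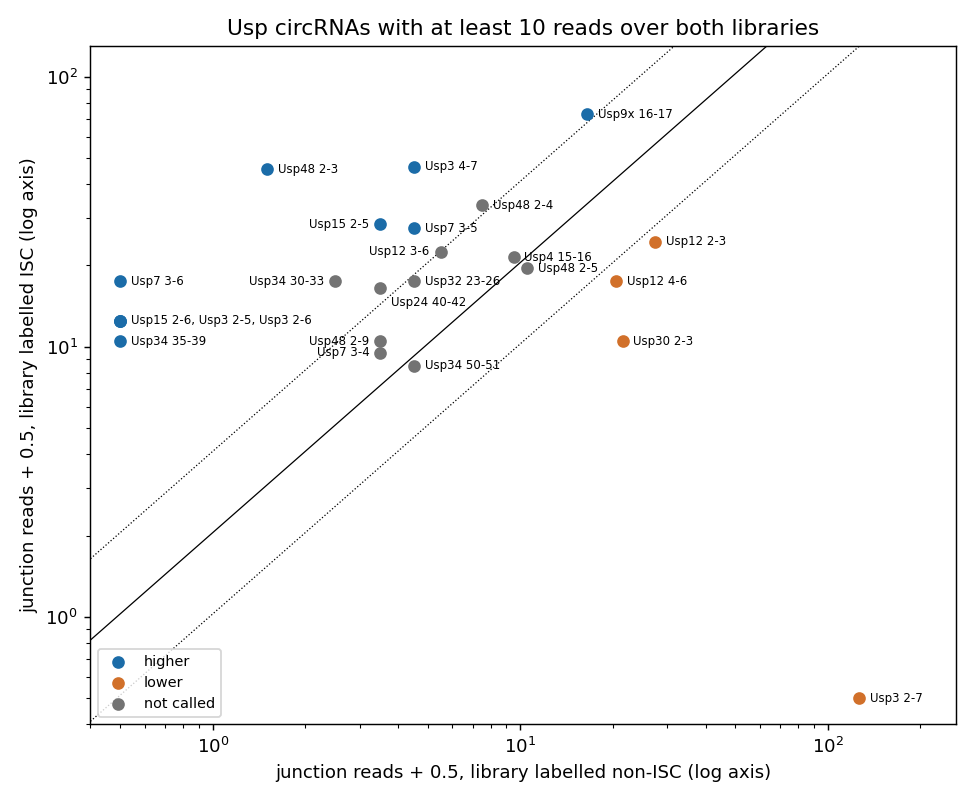
Junction reads plus 0.5 in the library labelled ISC against those in the library labelled non-ISC (log axes) for the 24 Usp circRNAs with at least 10 reads, labelled by host gene and exons; the solid line marks equal shares of the libraries and the dotted lines 2-fold. Usp3 exons 2 to 7 stands alone at 126 reads against none listed, and 10 circRNAs are higher and 4 lower.

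The circles shared several features that the name pattern did not use. Of the 211 Usp circRNAs with a read, 177 (83.9%) had both ends on exon ends of 1 transcript, against 70.6% of all circRNAs, and they held 94.8% of the Usp reads against 88.1%. All 24 with at least 10 reads were exonic and lay wholly in coding sequence, against 92.7% exonic and 81.5% of those coding over all circRNAs of that coverage. Their spliced length ran from 233 to 1037 nt with a median of 440.5 nt, against 435 nt over all. None of the 24 was a single exon, against 4.63% of all.

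Of the 24, 11 (45.8%) began at exon 2, the earliest exon with an acceptor, against 35.4% of all. The intron before the circle had a median length of 10006 nt and the one after it 2427 nt, against 8733 and 6261 nt over all circRNAs of that coverage. In Usp7 the upstream intron measured 40196 nt and in Usp3, before exon 2, 25880 nt. The length was a multiple of 3 in 6 of the 24, against 38.6% of all coding circles. These are descriptions, with no test, since circles of 1 gene share their ends.

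**Figure D5:**
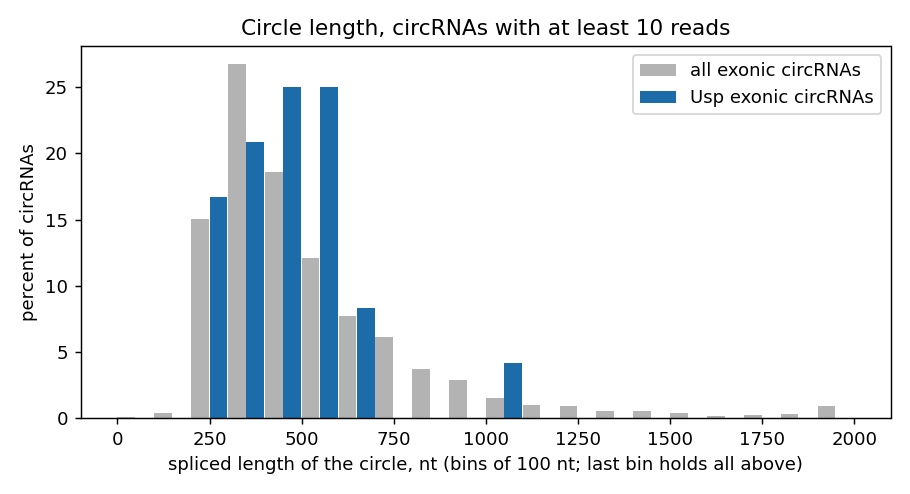
Percent of exonic circRNAs with at least 10 reads by spliced length in bins of 100 nt, blue for the 24 Usp circRNAs and grey for all 3392. Both distributions lie mainly between 200 and 700 nt, and the longest Usp circle, at 1037 nt, is that of Usp48 exons 2 to 9.

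Other deubiquitinase families were measured for comparison. Of 34 such genes, 20 had reads, and among the 10 with enough to be called 3 were higher in the library labelled ISC and 0 lower, beside 26.7% and 22.7% of all host genes tested. Their summed ratio was 1.52 (1.31 to 1.76) and their median log2 ratio 0.33. Atxn3, the Josephin deubiquitinase known from polyglutamine ataxia, had 144 reads against 14, a ratio of 5.01 (2.89 to 9.40). Fam188a, now named Mindy3, had 230 against 7, a ratio of 16.0 (7.65 to 40.3). Zranb1, an OTU family member, had 292 against 184 and did not pass, at 0.774 (0.641 to 0.935), turning to 2.18 with library totals.

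Of Cyld, Uspl1 and Pan2, which lack the pattern, only Cyld had enough reads. Cyld, a negative regulator of NF-kappaB signalling, had 6 reads against 12 and was lower, at 0.244 (0.0751 to 0.702), or 0.687 with library totals. Of 8 partner genes of Usp proteins, 5 had reads and 2 had at least 10, with G3bp1 at 10 against 0 and higher. Atxn7, which anchors the Usp22 module of SAGA, had 121 against 153 and was lower, at 0.386 (0.301 to 0.493), turning to 1.09 with library totals. Among 7 ubiquitin-conjugating (E2) genes with enough reads, 3 were higher and 0 lower, beside the same 26.7% and 22.7% of all host genes. Among them were Ube2d2a at 604 against 123 (ratio 2.39, 1.97 to 2.93) and Ube2k at 355 against 37 (ratio 4.68, 3.33 to 6.75). Birc6 had 179 against 44, a ratio of 1.98 (1.42 to 2.82), and Ube2w 49 against 15, and neither passed; with library totals the ratio of Birc6 was 5.59. The activating (E1) genes had 10 reads against 4 in all and none with at least 10.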

How the data were processed

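Per the labels' protocols, RNA depleted of ribosomal RNA and treated with RNase R was fragmented to about 200 bp and read for 150 nt from both ends. Trimmomatic 0.36 and FastQC appear in the submitters' processing notes, with mm9 as build, and no aligner or circRNA caller is named there or in the labels. Per the file headers, each entry that the authors deposited has a count of assigned reads, its RPM and a count of junction reads. The deposited RPM is the count per 1000000 reads, implying totals of 52636694 reads (label ISC) and 72271995 (label non-ISC). Only the junction count was used for the main values. Starts lay on GENCODE M21 exon starts for 75.2% of all circRNAs and for 0.178% when shifted by 1 nt, so coordinates are GRCm38, counted from 1. Exons are numbered on the lowest-named basic protein-coding transcript that has both ends.

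Ratios and intervals were computed in Python 3.11.15 with scipy 1.17.1, over all 8174 host genes and 31496 circRNAs. The limit of a count of 0, 3 counts, is 19.2 and 39.3 per 1000000 junction reads. All Usp host genes with at least 10 reads are named, and the leading circRNA of each with at least 50. Whether both mates of a fragment were counted was not tested, and 60 Usp circRNAs labelled ISC had 2 reads and 37 had 1. Over all circRNAs these numbers were 5425 and 4636 labelled ISC, and 3190 and 3803 labelled non-ISC. The members and gene lists were chosen with earlier results of these data known.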

Additional observations from a re-analysis of the deposited data

Results flagged for a closer look

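In the library labelled non-ISC, 4 Usp host genes had reads in the deposited count column and 0 junction reads, which is signal in a column that the comparisons do not use. The deposited counts were 249 for Usp10, 16 for Usp31, 35 for Usp45 and 24 for Usp54, all above the limit of 3 counts. In all, 39 of the 127 Usp entries of that library had 0 junction reads, with deposited counts between 2 and 586, while none of the 158 entries of the library labelled ISC had 0. Of the 4 host genes called higher on junction reads, 2 had larger unscaled deposited counts labelled non-ISC. These were Usp15 (73 labelled ISC against 91) and Usp25 (59 against 66). Usp7 (779 against 637) and Usp54 (48 against 24) had larger ones labelled ISC. No source used here says how reads were assigned to that column.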

How the results depend on the processing

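Median-ratio scaling and leaving out Usp6nl turned no direction and moved no count of calls by over 1.5 times. Nor did keeping only exonic circRNAs, which was chosen after seeing the data. Leaving Usp3 out of the counts of calls, also chosen after seeing the data, moved none of them by over 1.5 times. The direction of the summed ratio did turn without Usp3, as given below. With library totals there were 11 host genes higher and 0 lower, 19 circRNAs higher and 1 lower, a summed ratio of 2.57 and a Usp3 ratio of 0.898. Over circRNAs with reads in both libraries there was 1 host gene lower and 5 circRNAs higher, and the summed ratio was 1.22. In that set the Usp3 ratio was 4.68 and the Usp3 leading share labelled ISC 95.8%. The leading Usp3 circRNA labelled non-ISC was not in that set, so its share had no value. The circle of exons 4 to 7 led there in both libraries. Without Usp3 the summed ratio was 1.17, and without its most abundant circRNA the Usp3 ratio was 6.06. Halved reads left 3 circRNAs higher and 2 lower. The deposited count column gave 24 host genes lower, 53 circRNAs higher and 54 lower, a summed ratio of 0.462, a Usp3 ratio of 0.866 and a Usp3 share labelled ISC of 7.30%. A minimum of 5 reads gave 4 host genes higher and 5 lower, and 10 circRNAs higher and 11 lower. With no minimum these were 4 and 5 host genes, and 10 and 13 circRNAs. At both settings more were called lower than higher, unlike with the minimum of 10. A minimum of 20 reads gave 5 circRNAs higher. A fold of 1.5 gave 7 host genes higher. Halved reads and a higher minimum leave fewer circRNAs to test; for the other settings the cause was not tested. No paired analysis was possible because each group has 1 library. Depth limits the 21 host genes under 10 reads, of which Usp43 and Usp38 had intervals that excluded 1.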
